A study of Mus musculus with 16 samples.

Results

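Type I interferon and the sensors that induce it switch on antiviral genes in macrophages. Here 10 of these were followed through a time course of lipopolysaccharide (LPS), the bacterial cell wall component that activates Toll-like receptor 4. The genes were Ifit1, Ifit2, Ifit3, Ifit3b, Isg15, Usp18, Rsad2, Cmpk2, Isg20 and Herc6. They were chosen by name from the 13832 genes of the deposited table, and all 10 were in it. The cells were RAW264.7, a mouse macrophage-like cell line. Ribosome footprints (fragments of RNA protected from RNase I by ribosomes, taken from monosomes of a sucrose gradient) and input RNA (cytoplasmic RNA of the same lysates, fragmented by alkali) were sequenced from untreated cells and from cells given 100 ng/ml LPS for 15, 30, 45, 60, 75 and 90 min and 16 h. There were 16 libraries in all, 1 for each material at each time point, so no group had a replicate. Cells were lysed in cycloheximide, which holds ribosomes on the RNA, and untreated cells were collected at 0 min alone, so that LPS and 16 h of further culture cannot be told apart at the last time point.

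Stimulation of Toll-like receptor 4 activates IRF3, which induces interferon beta. Secreted interferon binds its receptor on the same and neighbouring cells, and activated transcription factors then bind interferon-stimulated response elements (ISRE) before the start sites of antiviral genes. IFIT proteins bind foreign or unusually capped RNA and block its translation, ISG15 is a ubiquitin-like protein that is attached to other proteins, and viperin, the product of Rsad2, makes a chain-terminating nucleotide that stops viral RNA synthesis.

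Each library held 6702930 to 6702932 counts over the table. Totals this close look like random draws of one size from larger sets, and the depth of sequencing is unknown. All 7 macrophage markers examined were detected, with summed counts of 11788 to 26758 per library. The markers of other cells were near 0. Dendritic cell markers summed to 3 to 13 reads, lymphocyte markers to 0 to 8 and the 1 epithelial marker in the table to 0 to 1. Of all genes, 9529 reached 10 counts in 4 or more of the 8 libraries of each material and were tested.

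Stretches of 5 promoters are shown first because they hold the letters of the ISRE, the binding site of the interferon-activated factor. The windows, from RefSeq on GRCm38.p6, run from 250 bases before to 50 bases after an annotated start site, and 9 of the 10 genes had one. In the stretches below, each of 100 bases before the start site and in the direction of transcription, capitals mark the letters GAAA, any 2 bases, GAAA on either strand, which read TTTC, any 2 bases, TTTC where the match is on the other strand.
Ifit1, chr19:34640759-34640858, plus strand: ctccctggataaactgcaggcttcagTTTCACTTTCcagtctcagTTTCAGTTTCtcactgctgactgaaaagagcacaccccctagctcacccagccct
Ifit3, chr19:34583349-34583448, plus strand: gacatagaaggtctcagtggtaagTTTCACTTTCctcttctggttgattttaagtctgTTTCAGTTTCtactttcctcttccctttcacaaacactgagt
Ifit3b, chr19:34607745-34607844, plus strand: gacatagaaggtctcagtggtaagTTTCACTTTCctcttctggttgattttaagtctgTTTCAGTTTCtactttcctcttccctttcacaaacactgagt
Isg15, chr4:156200849-156200948, minus strand: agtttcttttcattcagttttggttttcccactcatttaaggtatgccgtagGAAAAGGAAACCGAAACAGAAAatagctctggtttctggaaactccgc
Rsad2, chr12:26456513-26456612, minus strand: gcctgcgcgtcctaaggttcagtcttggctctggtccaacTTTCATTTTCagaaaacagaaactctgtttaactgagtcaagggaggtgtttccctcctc

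The ISRE letters were found in windows of 5 of the 9 genes, Ifit1, Ifit3, Ifit3b, Isg15 and Rsad2, against 3.99% of the 27025 genes with a window. Ifit1 held matches starting 104 and 85 bases before its start site. Isg15 held 3 overlapping matches, the first at 78 bases, which together form the single capital run shown above. Rsad2 held 1, at 120 bases. The stretches of Ifit3 and Ifit3b were identical at 100 of 100 bases. No match to these letters was found in the windows of Ifit2, Cmpk2, Isg20 and Herc6, which says only that these letters are not in these windows. The letters GGGA, any 2 bases, TTCC, a form of the NF-κB site, were found in windows of 2 of the 9 genes, against 1.63% of genes, and are shown in capitals because NF-κB is the other main factor downstream of the LPS receptor.
Ifit2, chr19:34550444-34550461, plus strand: catGGGAGCTTCCtggaa
Isg20, chr7:78913651-78913670, plus strand: gttgtGGGACCTTCCccagg

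The letters TATAAA were found in 0 of the 9, against 9.77% of genes. In like families, the ISRE letters were found in windows of 4 of 6 Oas and Oas-like genes and of 7 of 7 guanylate-binding and immunity-related GTPases. Oas genes encode enzymes that sense double-stranded RNA. The Oas-like genes Oasl1 and Oasl2 had no match.

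**Figure D1:**
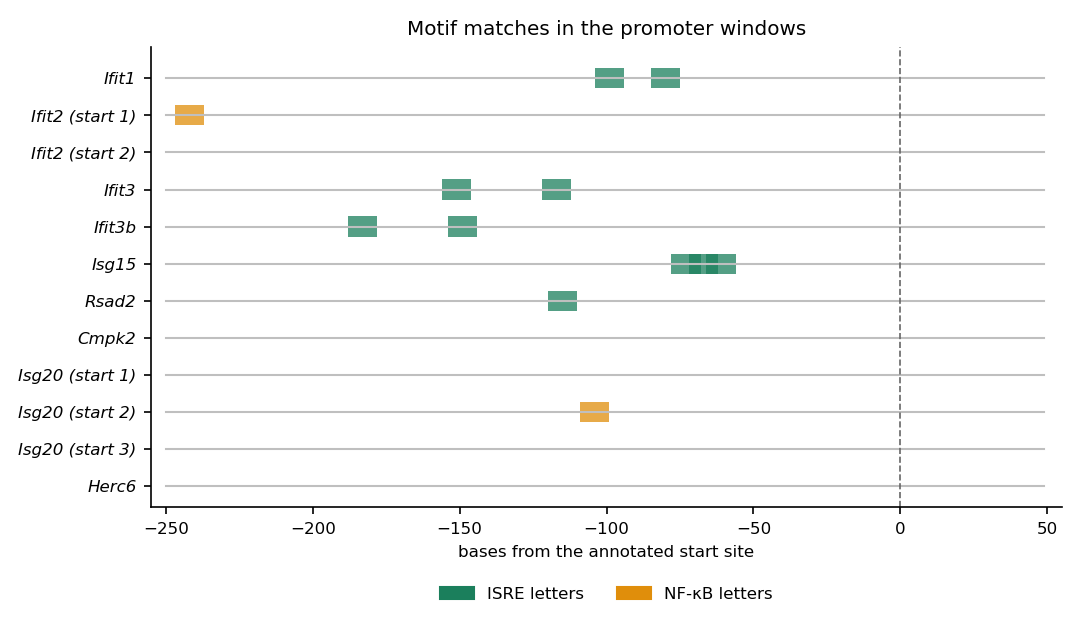
Position of motif matches in the promoter windows of 9 genes, one line per annotated start site, in bases from the start site (0, dashed line). Boxes are matches on either strand to the ISRE letters (green) and to the NF-κB letters (orange); 5 genes hold green boxes, all before the start site, and 2 hold orange ones.

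The genes lie at 6 places in the genome (GENCODE M21, GRCm38). Ifit2, Ifit3, Ifit3b and Ifit1 lie in that order within 99316 bases of chromosome 19. Rsad2 and Cmpk2 are neighbours on chromosome 12 that point away from each other, with starts 12752 bases apart. Isg15 is on chromosome 4, Isg20 on chromosome 7, and Usp18 and Herc6 are far apart on chromosome 6. The sequences of Ifit3 and Ifit3b bear on their counts. Their coding sequences are 1209 bases each and identical at 1198 of them (99.1%), and 79.5% of the 29-base words of each occur in the other. Reads of the 2 genes therefore cannot be told apart over most of their length, and the handling of reads with several matches is unknown. Shared words made up 19.1% of the coding sequence of Ifit1, 18.0% of that of Isg15 and 39.9% of that of Herc6, and 0 in the other 5 genes.

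At 16 h of LPS all 10 genes had more reads than in untreated cells, in footprints and in input. Together they held 25344 footprint reads at 16 h, against 184 in untreated cells, or 0.378% of the library against 0.00275%. In input they held 17451 reads at 16 h, against 206 in untreated cells, or 0.26% against 0.00307%. Of the 4 genes with enough reads to be tested (Ifit2, Isg15, Usp18 and Herc6), 4 rose in footprints and 4 in input by edgeR's quasi-likelihood test (Benjamini-Hochberg adjusted p under 0.05), where 25.9% of all tested genes rose in footprints and 27.6% in input. The median log2 change of the 4 was 5.99 in footprints and 5.27 in input, beside 0.00 and -0.01 over all tested genes. In a bulk library, more RNA per cell and more cells that carry it cannot be told apart. Ratios between single libraries below are scaled by TMM (a library scaling that centres most genes) and have exact 95% intervals that cover counting error only.

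Rsad2, the viperin gene, had 1, 2, 5, 1, 11, 19, 7 and 5453 footprint reads from 0 min to 16 h. In input it had 5, 5, 13, 11, 17, 14, 19 and 5612 reads. Its ratio of 16 h to untreated was 5908 in footprints (1060 to 233400, resting on 1 untreated read) and 1240 in input (531 to 3819). Ranked by that ratio with at least 3 reads assumed in untreated cells, Rsad2 was 3rd of 6913 genes in footprints and 3rd of 7337 in input. The ranking took in only genes with at least 100 reads in the 16 h library of that material. Cmpk2, its neighbour, encodes a mitochondrial nucleotide kinase. It had 5, 8, 10, 8, 4, 7, 10 and 1820 footprint reads, and 8, 5, 15, 10, 12, 8, 4 and 1751 input reads. The ratio at 16 h was 394 in footprints (169 to 1216) and 242 in input (122 to 561), so the 2 neighbours were both near 0 up to 90 min and both high at 16 h.

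Isg15 had 26, 12, 21, 25, 27, 52, 81 and 8308 footprint reads from 0 min to 16 h. In input it had 5, 6, 19, 9, 16, 13, 34 and 3101 reads. It had more footprint reads at 16 h than any of the other 9 genes, and it rose by a log2 change of 8.65 ± 0.205 in footprints (SE, edgeR adjusted p = 1.5e-10) and of 8.97 ± 0.31 in input (adjusted p = 2.1e-09). Usp18, the protease that removes ISG15 from proteins and also restrains the interferon receptor, had 61, 70, 65, 88, 59, 57, 36 and 3482 footprint reads. In input it had 56, 49, 47, 46, 50, 40, 38 and 2185 reads, so it was well above 0 before stimulation. Usp18 rose at 16 h by 5.995 ± 0.164 in footprints (edgeR adjusted p = 3.1e-10) and by 5.50 ± 0.136 in input (adjusted p = 4.1e-10). Herc6, the main ligase that attaches ISG15 in mouse cells, had 19, 16, 28, 18, 19, 20, 21 and 385 footprint reads and 25, 31, 35, 29, 30, 32, 27 and 372 input reads. It rose by 4.45 ± 0.269 in footprints (edgeR adjusted p = 1.3e-07) and by 3.96 ± 0.205 in input (adjusted p = 4.4e-08), the smallest changes of the 4 tested genes.

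Ifit2 had 56, 42, 60, 55, 31, 25, 24 and 3063 footprint reads from 0 min to 16 h. In input it had 96, 83, 80, 68, 59, 34, 33 and 2791 reads. It was the most abundant of the 4 IFIT genes in untreated cells, and it rose at 16 h by 5.98 ± 0.204 in footprints (edgeR adjusted p = 1.4e-09) and by 5.04 ± 0.13 in input (adjusted p = 4.5e-10). Ifit1, whose protein binds RNA lacking the host's cap methylation, had 8, 7, 3, 8, 11, 18, 15 and 1286 footprint reads and 6, 6, 7, 4, 8, 7, 8 and 772 input reads. Its ratio of 16 h to untreated was 174 in footprints (88.1 to 404) and 142 in input (65.0 to 388). Ifit3 had 0 to 3 footprint reads up to 90 min and 496 at 16 h, at least 179-fold higher than untreated cells, taking a floor of 3 reads for the untreated library's 0. In input Ifit3 had 0 or 1 reads up to 90 min and 323 at 16 h, a ratio of 357 (63.6 to 14130, on 1 untreated read). Ifit3b had 0 footprint reads in each library up to 90 min and 72 at 16 h (at least 26.0-fold higher), and 0 or 1 input reads and 76 at 16 h (at least 27.98-fold higher). Isg20, an RNA exonuclease, had 8, 6, 5, 4, 5, 5, 3 and 979 footprint reads and 4, 3, 2, 1, 3, 5, 5 and 468 input reads. Its ratio at 16 h was 133 in footprints (67.0 to 308) and 129 in input (50.1 to 476).

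**Figure D2:**
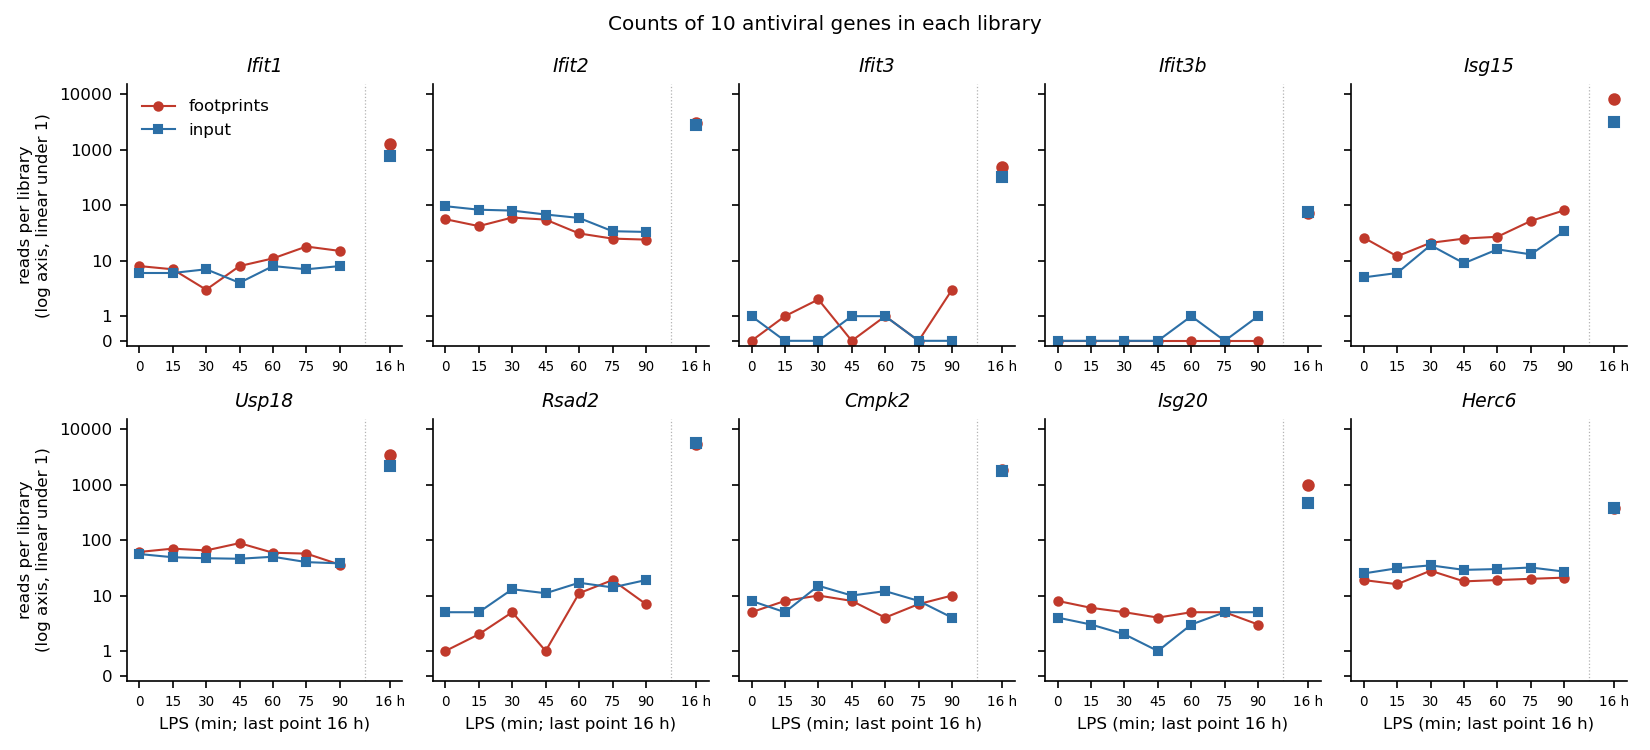
Reads of each of the 10 genes in the 8 footprint (red circles) and 8 input (blue squares) libraries against time after LPS, on a log axis that is linear below 1; each point is 1 library and no error can be drawn. All 10 genes are highest at 16 h; Isg15 reaches 8308 footprint reads and Ifit3b 72, while up to 90 min no gene exceeds 96 reads.

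**Figure D3:**
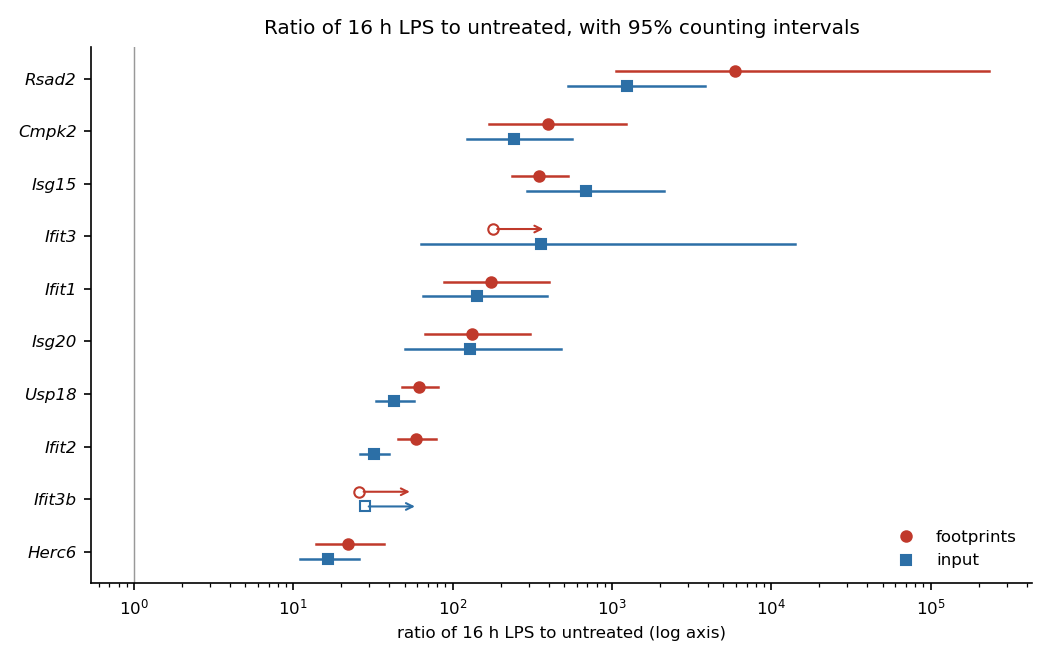
Ratio of the 16 h LPS library to the untreated library for each gene, in footprints (red circles) and input (blue squares), on a log axis; bars are exact 95% counting intervals, and open symbols with arrows are lower bounds where the untreated count was 0. The ratios in footprints run from 22.0 for Herc6 to 5908 for Rsad2, whose interval is the widest because it rests on 1 untreated read.

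Per coding length and after TMM scaling, the order of footprint levels at 16 h was Isg15 with 2524 CPM per kilobase (95% counting interval 2470 to 2579), Rsad2 with 737, Usp18 with 463, Ifit2 with 319, Cmpk2 with 199, Isg20 with 160, Ifit1 with 136, Ifit3 with 60.2, Herc6 with 18.8 and Ifit3b with 8.74. No 2 neighbours in that order had overlapping counting intervals, which leaves out any spread between cultures. The places of Ifit3 and Ifit3b, here and in input, also depend on the unknown handling of reads that match both. Of their 29-base words 79.5% are shared, and the levels are not corrected for this. In untreated cells the highest footprint levels on the same scale were those of Usp18 (7.48), Isg15 (7.29) and Ifit2 (5.38), whose intervals overlapped. Input reads can come from the whole transcript, of which the coding share ran from 28.7% in Rsad2 to 82.8% in Isg20. The order of input levels per coding length may therefore differ from an order per transcript length. In input at 16 h Isg15 had 1017 and Rsad2 818 CPM per kilobase of coding length. Usp18 and Ifit2 had 313 each with overlapping intervals, and Cmpk2 had 207. Ifit1 with 88.0 and Isg20 with 82.3 also overlapped, ahead of Ifit3 (42.3), Herc6 (19.6) and Ifit3b (9.95).

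Within the first 90 min the tested genes moved in different directions. Isg15 rose and Ifit2 fell, while Herc6 did not pass the test in either material. The change over 0 to 90 min is the largest departure of a fitted quadratic curve from its value at 0 min, with a joint test of the curve's 2 terms. In footprints 2 of the 4 genes were called higher and 1 lower, against 12.2% and 8.3% of all tested genes. In input 1 was called higher and 1 lower, against 14.6% and 11.4%. Scaled by total counts in place of TMM, 739 genes were higher and 2608 lower in footprints, against 1160 and 791 with TMM, and 990 were higher and 1863 lower in input, against 1390 and 1088. That scaling put the median log2 change of all genes over 0 to 90 min at -0.32 in footprints and -0.17 in input, against -0.07 and -0.06 with TMM. At 16 h in input it gave 2110 genes higher and 3411 lower, against 2632 and 2637.

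Isg15 rose over 0 to 90 min by 2.18 ± 0.254 in footprints (edgeR adjusted p = 9.3e-05), a call that held in all 15 alternative settings. Its size rested in part on the 90 min library, without which the change was 1.36, and on leaving out each time point in turn it lay between 1.36 and 2.69. At 75 min its ratio to untreated was 2.31 in footprints (1.42 to 3.86), and at 90 min it was 3.77 (2.40 to 6.11). At 15 min the footprint ratio was 0.481 (0.221 to 0.987), the lowest of the course. In input Isg15 rose by 2.19 ± 0.558 (edgeR adjusted p = 0.028), with 34 reads at 90 min against 5 in untreated cells. The input call was lost in DESeq2 and on leaving out the untreated library (change of 1.64), the 15 min library (1.99) or the 90 min library (1.65), with adjusted p between 0.0013 and 0.18 over 15 alternatives.

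Ifit2 fell over 0 to 90 min by 1.49 ± 0.189 on the log2 scale in input (edgeR adjusted p = 0.00057), a call that held in all 15 alternative settings. At 90 min its input ratio to untreated was 0.372 (0.242 to 0.557), and at 75 min it was 0.377 (0.247 to 0.563). In footprints Ifit2 fell by 1.08 ± 0.309 (edgeR adjusted p = 0.046), with ratios of 0.519 (0.307 to 0.850) at 90 min and 1.08 (0.733 to 1.60) at 45 min. The footprint call was lost in 10 of 15 alternatives (adjusted p between 0.013 and 0.14), among them leaving out the library of 0 min (change of -1.13), 30 min (-0.99), 45 min (-1.09), 60 min (-0.98), 75 min (-0.93) or 90 min (-0.82). Usp18 passed the footprint test with a change of 0.48 ± 0.202 (edgeR adjusted p = 0.04), and its footprint ratio to untreated was 1.59 (1.14 to 2.24) at 45 min and 0.714 (0.459 to 1.10) at 90 min. This curve goes up and then down, and its sign turned negative in 5 of 15 alternatives, among them scaling by total counts (-0.63) and leaving out the library of 0 min (-0.66) or 45 min (-0.38), while the call was lost without the library of 15 min (0.49), 75 min (0.46) or 90 min (0.45). In input Usp18 changed by -0.33 ± 0.193 (edgeR adjusted p = 0.52). Herc6 changed by 0.34 ± 0.353 in footprints (adjusted p = 0.75) and 0.33 ± 0.264 in input (edgeR adjusted p = 0.66).

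**Figure D4:**
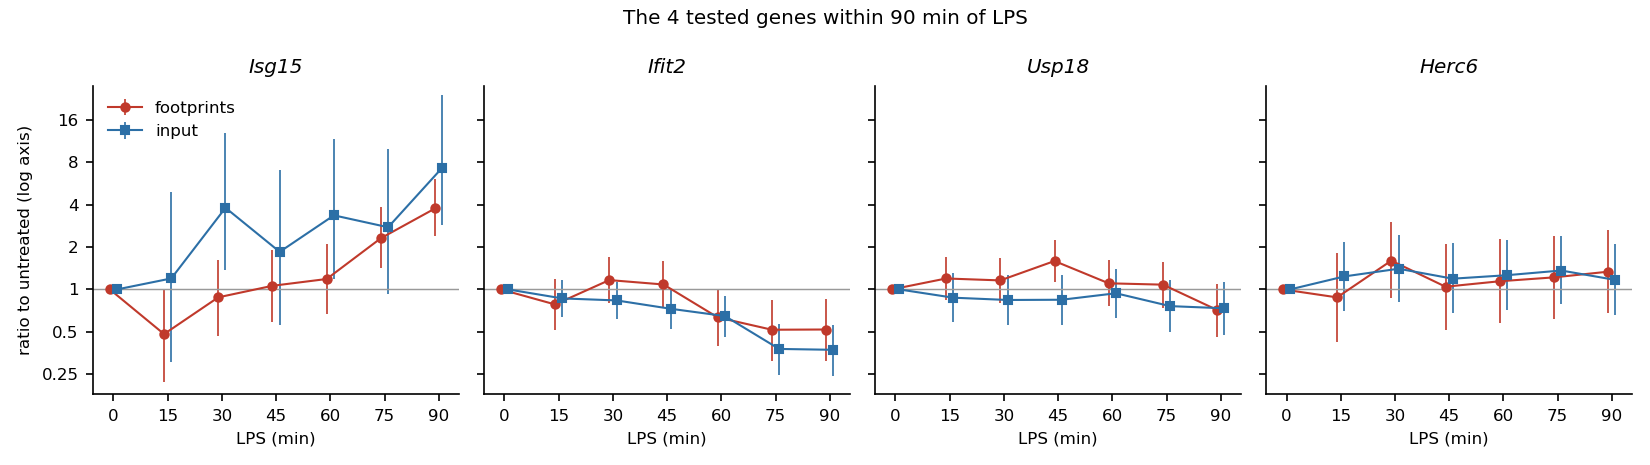
Ratio to the untreated library from 0 to 90 min for the 4 tested genes, in footprints (red circles) and input (blue squares), on a log axis; bars are exact 95% counting intervals, and the points are set slightly apart so that both can be seen. Isg15 reaches 3.77 in footprints at 90 min and Ifit2 falls to 0.372 in input, while the intervals of Herc6 span 1 throughout.

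The other 6 genes were too low before 16 h for the main test. With a looser filter of 10 counts in at least 1 library of each material (10083 genes), all 10 entered. Ifit1, Isg20, Ifit3 and Ifit3b reached it in at least 1 material only through the 16 h library, so no test over 0 to 90 min is given for them. Rsad2 reached it only through the libraries where its reads were highest, so no early test is given for it either. These were 60 min, 75 min and 16 h in footprints, and 30 min onwards in input. At 90 min the ratio of Rsad2 to untreated was 8.47 in footprints (1.09 to 382, on 1 untreated read) and 4.11 in input (1.48 to 14.1). Its footprint reads were 11 and 19 at 60 and 75 min and 7 at 90 min, against 1 to 5 up to 45 min. Cmpk2 had a change of 0.54 ± 0.566 in footprints (edgeR adjusted p = 0.77) and of 1.00 ± 0.532 in input (adjusted p = 0.2). Ifit1 had 18 and 15 footprint reads at 75 and 90 min, against 3 to 11 before.

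Ribosome density (footprints over input, set to 1 for the typical gene) was highest for Isg15 and Usp18 among the 4 tested genes. Averaged over the time points, Isg15 stood at a log2 density of 1.55 ± 0.115 (edgeR adjusted p = 6.8e-10) and Usp18 at 0.72 ± 0.0869 (adjusted p = 5.4e-07). This is not an even average, as it rests more on the 16 h pair where earlier counts were low. Ifit2 stood at -0.11 ± 0.117 (adjusted p = 0.39) and Herc6 at -0.11 ± 0.123 (adjusted p = 0.4). So 2 of 4 were called higher, where the test called 43.7% of all genes higher than typical and 85.2% in either direction. Both calls ended when the block for the time point, whose 2 libraries come from the same lysate, was left out (log2 density of 1.58 for Isg15 and 0.81 for Usp18). At 16 h, where the counts were largest, the density of Isg15 was 2.99 times that of the typical gene (2.87 to 3.12), the 97.9th percentile of 6581 genes with at least 100 reads in each library. Isg20 followed with 2.33 (2.09 to 2.61), Ifit1 with 1.86 (1.70 to 2.03), Usp18 with 1.78 (1.69 to 1.88) and Ifit3 with 1.71 (1.49 to 1.98). Ifit2 had 1.22, Cmpk2 1.16, Herc6 1.15, Rsad2 1.08 and Ifit3b 1.06. The intervals of Herc6 (0.999 to 1.33) and Ifit3b (0.755 to 1.48) included 1. The typical gene, at 1, is set by TMM and is not the median of the 6581 genes. Among those genes Ifit2 lay at percentile 57.9, Cmpk2 at 53.0, Herc6 at 52.6 and Rsad2 at 47.1, all near the middle.

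The order of density at 16 h loosely followed the share of the transcript that codes for protein. That share ran from 28.7% in Rsad2 and 36.9% in Ifit2 to 63.9% in Isg15 and 82.8% in Isg20. Across the 10 genes Spearman's rho was 0.552 and Pearson's r 0.612, and across the 8 genes left without the near copies Ifit3 and Ifit3b they were 0.69 and 0.711. Herc6 and Ifit3b, with shares of 63.1% and 60.5%, had lower densities than Ifit1 with 52.3%. The length of the coding sequence gave correlations of the other sign, -0.426 and -0.542 across the 10 genes and -0.524 and -0.604 across the 8. These are descriptions over genes that share 1 pair of libraries. Input reads can come from the whole transcript and footprints mostly from its coding part, and the counted features are unknown. The part of the coding share or length in the densities was not tested.

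**Figure D5:**
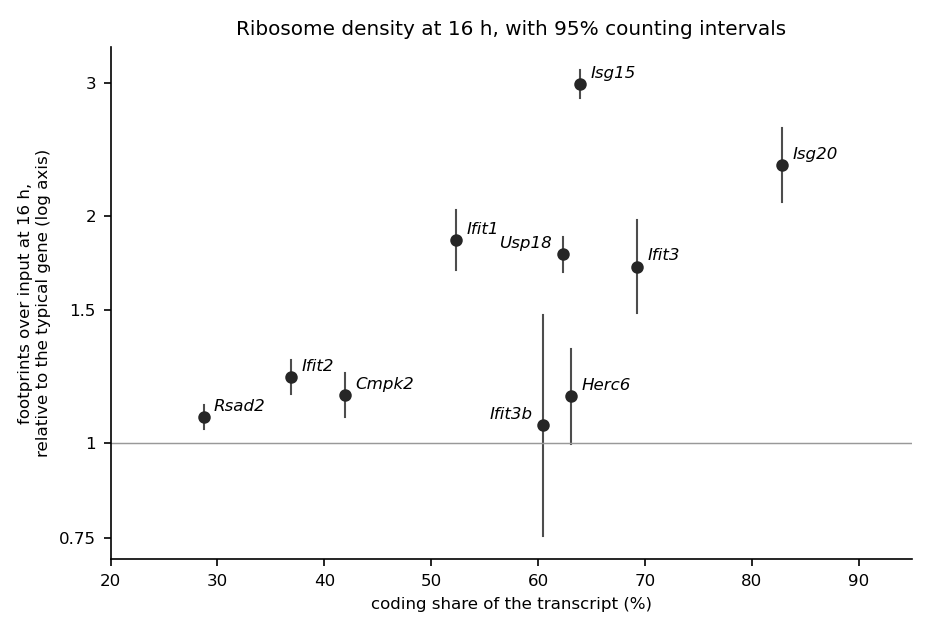
Ratio of footprints to input in the 16 h libraries, relative to the typical gene (log axis), against the percentage of each gene's transcript that is coding; bars are exact 95% counting intervals. Isg15 lies highest at 2.99 with a coding share of 63.9%, and Rsad2, with the lowest share at 28.7%, lies at 1.08.

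A change of density with LPS was not detectable for the 4 tested genes. For the term at 16 h, 0 of 4 tested genes passed edgeR's test, 2 had an unadjusted p under 0.05, and DESeq2 called 0, with 1 at an unadjusted p under 0.05 and 1 given no adjusted p. Of all genes 0.399% were called. Ifit2 had the largest change, 0.99 ± 0.246 (edgeR adjusted p = 0.11), with density ratios between 0.576 and 0.95 up to 90 min and 1.22 (1.16 to 1.29) at 16 h, above each of the 7 earlier ones. Without the 30 min libraries its change was 1.01 and passed the test, with adjusted p between 0.038 and 0.45 over 16 alternatives. Usp18 changed by 0.55 ± 0.248 (adjusted p = 0.45), Herc6 by 0.55 ± 0.392 (adjusted p = 0.66) and Isg15 by -0.26 ± 0.532 (edgeR adjusted p = 0.91). For the change over 0 to 90 min, 0 of 4 passed, 0 had an unadjusted p under 0.05 in edgeR or DESeq2 (which gave 3 of them no adjusted p), and 1.25% of all genes were called. The density of Usp18 was 2.25 (1.56 to 3.28) at 45 min, against 1.19 (0.815 to 1.74) in untreated cells.

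Interferon beta, which the LPS receptor is known to induce through IRF3, was first detected within 90 min and stayed at low counts. Whether it drove the rise of the antiviral genes in these cells was not tested. Ifnb1 had 0, 0, 0, 0, 5, 9, 8 and 41 footprint reads from 0 min to 16 h, and 0, 0, 0, 1, 1, 7, 9 and 29 input reads. The receptor genes moved little. Ifnar1 changed at 16 h by 0.35 ± 0.197 in footprints (edgeR adjusted p = 0.16) and rose by 0.50 ± 0.149 in input (adjusted p = 0.014), and Ifnar2 passed in neither. Of the 9 tested genes on the route from Toll-like receptor 4 to IRF3, 7 rose and 0 fell at 16 h in footprints. In input 6 rose and 1 fell. Of all 9529 tested genes, 2469 rose and 2307 fell in footprints, and 2632 rose and 2637 fell in input. Ticam1, the adaptor on that route, rose within 90 min already, by 3.18 ± 0.365 in footprints (edgeR adjusted p = 2e-04) and 3.34 ± 0.268 in input (adjusted p = 1.6e-05). Irf7, the factor that amplifies the interferon response, had 169 footprint reads at 16 h against 7 in untreated cells, and 5300 input reads at 16 h against 28 in untreated cells. Its density changed at 16 h by -3.67 ± 0.541 (edgeR adjusted p = 0.0039).

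Stat2, a transcription factor downstream of the interferon receptor, had 138, 152, 113, 112, 68, 48, 36 and 1533 footprint reads from 0 min to 16 h. It fell over 0 to 90 min by 1.89 ± 0.197 on the log2 scale in footprints (edgeR adjusted p = 0.00013) and by 1.20 ± 0.189 in input (adjusted p = 0.0025), and then rose at 16 h by 3.52 ± 0.15 in footprints (adjusted p = 8.1e-09) and 3.33 ± 0.15 in input (adjusted p = 1.5e-08). The 3 partners of Isg15 in conjugation are Uba7, which activates ISG15, Ube2l6, which carries it, and Trim25, a ligase. All 3 rose at 16 h in both materials, where 25.9% of all tested genes rose in footprints and 27.6% in input. Ube2l6 rose by 3.79 in footprints and 3.61 in input, Uba7 by 3.37 and 3.28, and Trim25 by 1.77 and 2.19, all below the 8.65 and 8.97 of Isg15 itself. Over 0 to 90 min Uba7 fell by 0.56 ± 0.174 on the log2 scale in input (edgeR adjusted p = 0.047), and its footprint change was 0.11 ± 0.156 (adjusted p = 0.82). Ube2l6 and Trim25 did not pass the early test in either material (edgeR adjusted p between 0.12 and 0.83).

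Related interferon-induced families also rose at 16 h. Of 6 tested Oas and Oas-like genes, 5 rose in footprints and 5 in input, where 25.9% and 27.6% of all tested genes rose. Their median change was 3.67 and 3.68, beside the 5.99 and 5.27 of the 4 antiviral genes. Of 5 tested guanylate-binding and immunity-related GTPases, 5 rose in both materials, with a median of 3.48 and 3.81. These medians leave out relatives too low before 16 h to be tested. Between untreated cells and 16 h, footprint reads went from 4 to 1343 for Oasl2, 0 to 106 for Mx1 and 0 to 117 for Gbp5. They went from 2 to 84 for Gbp2 and 2 to 67 for Gbp9, while Gbp4 and Gbp8 had 0 or 1 in each footprint library. Oasl1, an Oas-like gene, rose within 90 min, by 3.29 ± 0.246 in footprints (edgeR adjusted p = 7.7e-06) and 3.35 ± 0.234 in input (adjusted p = 6.8e-06). The genes with courses most like the median of the 4 tested genes, by the root mean square difference of log2 changes from untreated over 14 values (7 time points in 2 materials), were Xaf1 (0.275), Trim30a (0.375), Siglec1 (0.381), Tnfrsf1b (0.421) and Dhx58 (0.432). Isg15 itself was 1.78 from that median, with 1092 genes closer.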

How the data were processed

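Ribosome footprints and input RNA of RAW264.7 cells were measured in 16 libraries, 1 per material and time point, grouped by their titles. The deposited table holds whole-number counts per gene, and a second set of values that the authors labelled as DESeq2-normalised, a signal that equals the count divided by a size factor, per the file headers; that signal was used only to check this. The submitters' processing notes name Bowtie 0.12.8, DESeq2 1.18.1 and mm10. For the counted features, strand, reads with several matches and the step that gave equal totals, nothing was given in the sources used here.

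Deposited counts were fitted with edgeR 4.0.16 (quasi-likelihood, TMM, library sizes over the whole table) in R 4.3.3, after keeping genes with 10 counts in at least 4 of 8 libraries of each material (9529 genes), with Benjamini-Hochberg adjustment over them and a threshold of 0.05. Terms were minutes, minutes squared and an indicator of 16 h, so the 16 h change is relative to the fitted value at 0 min. Density models took in footprints and input together, with a block for each time point. As no group has replicates, errors come from how far libraries lie from the fitted curve (4 residual degrees of freedom, 7 for the density level), and the single 16 h library is taken to vary as much as the rest. Ratios of single libraries have exact conditional binomial intervals, which cover counting error only, as does the floor of 3 counts used where a count is 0.

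Promoters and motifs came from RefSeq, loci and 29-base words from GENCODE M21. All 10 genes are named. Of other pathway genes, at most 4 tested genes per list were eligible to be named with test values, those with the largest change at 16 h in input. Some untested genes of the lists are named with read counts alone. The genes and lists were chosen with earlier results of these data known. The fits were tested on simulated data. Alternatives were size factors, total counts, DESeq2 1.42.0, other filters and curves, no block, and leaving out each time point up to 90 min.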

Additional observations from a re-analysis of the deposited data

How the results depend on the processing

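The rise of Ifit2, Isg15, Usp18 and Herc6 at 16 h held in both materials under all 15 alternatives, as did the early fall of Ifit2 in input and the early rise of Isg15 in footprints. Footprints and input taken at one time share a lysate, and the density models pair them through a block for the time point. Between time points no paired analysis was possible because each material had 1 library per time point. Over 0 to 90 min, 1 tested gene in place of 2 passed in input with DESeq2, and 1 in place of 3 passed in footprints with a linear term, the square root of time or a cubic curve. Leaving out 1 time point left 1 to 2 in input and 1 to 2 in footprints, of 1541 to 2752 and 1283 to 2278 genes called. Scaling by total counts called 3347 genes in footprints. The footprint change of Usp18 was -0.63 with total counts, -0.31 with a linear term and -0.48 with a cubic curve, and -0.66 to 0.57 on leaving out a time point. The early input change of Herc6 was -0.066 to 0.42 on leaving out a time point.

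For the density change at 16 h, 38 genes were called in the main fit, 25 with DESeq2, 24 without the time-point block and 23 to 122 on leaving out a time point, with 0 to 1 of the 4 tested genes among them. That of Isg15 was 0.26 with a linear term and -0.68 to 0.88 on leaving out a time point. For the density change over 0 to 90 min, 119 genes were called, 61 with a linear term and 0 to 308 on leaving out a time point; with 0 called by edgeR without the untreated libraries, 566 had an unadjusted p under 0.05. That of Isg15 was 0.25 with a linear term, that of Herc6 -0.15 with total counts and -0.13 with the square root of time, and on leaving out a time point they were -1.44 to 1.15 for Isg15, -0.16 to 0.32 for Herc6 and -0.40 to 0.82 for Usp18. For the density level, 4 tested genes in place of 2 passed with total counts and 0 without the time-point block in edgeR, where Herc6 stood at 0.042 and Ifit2 at 0.22. The cause of these differences was not tested. Of the 5 genes with the most similar course, 3 were shared when footprints alone were used. Counts under 10 per library before 16 h limit what can be said within 90 min of Ifit3, Ifit3b and Isg20, and of Ifit1 in input. Most early counts of Rsad2 in footprints and of Cmpk2 in both materials were also under 10.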

Other observations

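The genes on either side of the Ifit cluster on chromosome 19 fell at 16 h; they were chosen after their values were seen. Of the genes in the table that lie nearest to an antiviral gene on either side, 10 were tested. Of these, 4 rose and 2 fell in footprints and 3 rose and 2 fell in input. Of all 9529 tested genes, 2469 rose and 2307 fell in footprints, and 2632 rose and 2637 fell in input. Nearest does not always mean close, as Id2, which rose, lies 1345605 bases from Rsad2, and Rps7 lies 2151016 from Cmpk2. Lipa and Slc16a12 are the 2 neighbours that fell. Lipa, which encodes lysosomal acid lipase and lies 23219 bases before Ifit2, had 1647 footprint reads at 16 h against 3316 in untreated cells, and fell by 0.88 ± 0.104 on the log2 scale in footprints (edgeR adjusted p = 2.9e-05) and by 0.58 ± 0.0841 in input (adjusted p = 0.00013). Slc16a12, a member of the monocarboxylate transporter family that lies 18393 bases past Ifit1, had 25 footprint reads at 16 h against 66 in untreated cells, and fell by 1.12 ± 0.377 in footprints (edgeR adjusted p = 0.028) and by 1.63 ± 0.229 in input (adjusted p = 0.00011). The near copies of Ifit1 inside the cluster had few reads. Ifit1bl1 had 23 footprint reads at 16 h against 0 in untreated cells, and Ifit1bl2 had 7 against 0, with 13 and 4 input reads at 16 h against 0 and 1 in untreated cells.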
